A study of Homo sapiens with 12 samples.

Results

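siPFDN5 was set directly against siPFDN2 in serum-starved cells, to find which genes differed between the loss of one prefoldin subunit and the loss of another. The 4 libraries compared were chosen by their titles from the 12 of the series: siPFDN5 before serum, replicates 1 and 2, and siPFDN2 before serum, replicates 1 and 2. All came from HCT116, a cell line of human colon carcinoma, transfected with 1 small interfering RNA (siRNA) and starved of serum for 48 h from 24 h after the siRNA was given. Beside them stand 2 siControl libraries before serum, treated alike, and the libraries of the same siRNAs taken 90 min after serum was added, again 2 of each. Nothing in the labels says that the replicates of a group came from separate cultures, so p-values measure only the spread between these libraries, which may be technical. The cells were bulk samples, in which fewer cells of a type and less RNA per cell cannot be told apart.

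Prefoldin is a chaperone of 6 different subunits that binds newly made actin, tubulin and other proteins and hands them to the chaperonin TRiC. PFDN2 is one of its beta-type subunits and PFDN5 (also called MM-1, a protein that binds MYC) one of its alpha-type subunits. Prefoldin subunits are also found in the nucleus, where they have been linked to transcription. A knockdown of either gene is aimed at 1 subunit of the same complex. A gene that differs between the knockdowns may differ by subunit, by siRNA, by depth of knockdown or by library. These cannot be told apart here.

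The siRNAs are shown because every difference below is a difference between these molecules as well as between their targets. Each line gives the sense strand, 5′ to 3′, and capitals mark the 7 bases that pair with the seed of the guide strand (bases 2 to 8 of the guide).
siPFDN2: cagccuagugaUCGAUACa
siPFDN5: agagaagacagCUGAGGAu
siControl: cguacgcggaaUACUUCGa
The siPFDN2 strand matched transcripts of PFDN2 alone, across the junction of exons 2 and 3 (chromosome 1 of GRCh38, 161102156 to 161102289 on the minus strand with the intron between). The siPFDN5 strand matched 11 annotated transcripts, all of PFDN5, across an exon junction (chromosome 12, 53297918 to 53298056 on the plus strand, again with the intron). The siControl strand matched 0 annotated genes in full.

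The 4 libraries held between 59784425 and 101654340 fragments counted over gene bodies, introns included, and the siPFDN5 libraries were the shallower ones. In siPFDN2 replicate 2 the deviation of a gene from the mean library followed the GC content of its transcript, with a Spearman's rho of 0.688 over genes, against -0.280 to 0.133 in the other 11 libraries. The replicates of siPFDN2 differed from each other with an SD of 0.681 (log2, over 12113 genes), and of 0.383 once each library's GC trend had been removed. In the other groups this SD lay between 0.115 and 0.298 with the trend removed, so siPFDN2 before serum stayed the most variable group. Without the correction, genes in the lowest of 10 bins of GC content were higher in siPFDN5 by a median of 0.96 on the log2 scale against siPFDN2 replicate 2, and those in the highest bin stood at -0.99. Against siPFDN2 replicate 1 the same medians were 0.01 and -0.13. With the trend removed they ran from 0.13 to 0.02 against replicate 2 and from -0.05 to -0.06 against replicate 1.

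**Figure D1:**
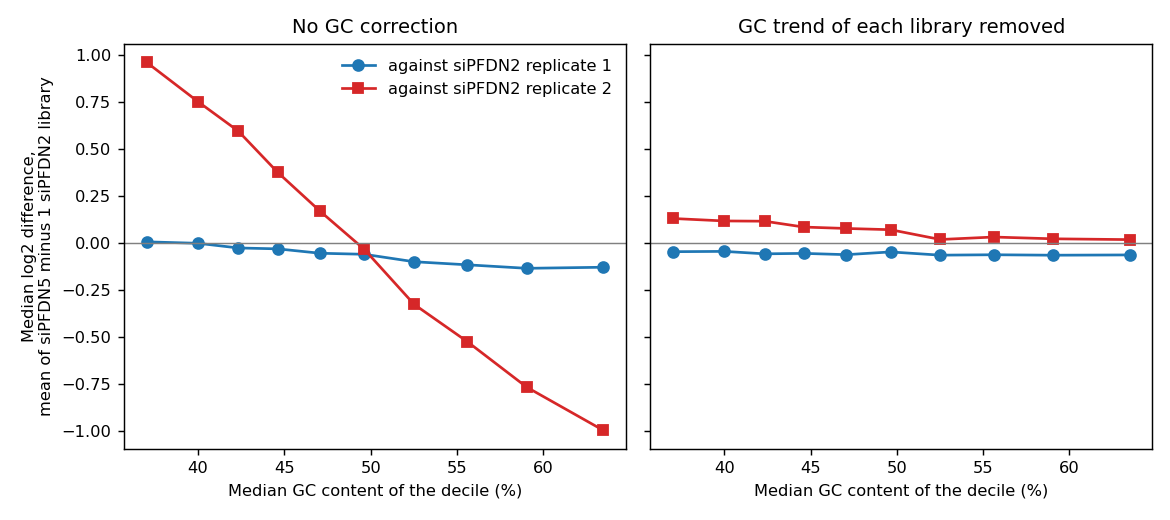
Median log2 difference (vertical axis) between the mean of the 2 siPFDN5 libraries and each siPFDN2 library, in 10 bins of genes by transcript GC content (horizontal axis, %), without a GC correction (left) and with each library's GC trend removed (right). Against siPFDN2 replicate 2 (squares) the median ran from 0.96 to -0.99, against replicate 1 (circles) from 0.01 to -0.13, and after the correction both lines lay between 0.13 and -0.06.

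With the GC trend removed, 1495 of 27915 tested genes (5.36%) had an adjusted p under 0.05, of which 860 (3.08%) were higher and 635 (2.27%) lower in siPFDN5. Adjusted p here and below comes from the quasi-likelihood test of edgeR, adjusted by Benjamini and Hochberg's method over all tested genes, and "called" means that a gene passed it. Both siPFDN5 libraries lay above both siPFDN2 libraries for 31.1% of all tested genes and below both for 21.9%, the background for the counts of separated libraries given below. A gene was said to hold when 3 further conditions were met. Its libraries had to be separated with and without the GC correction, and it had to be called with the same sign both without siPFDN2 replicate 1 and without siPFDN2 replicate 2. The steps kept 1300 genes for separation without the correction, 1383 for the fit without replicate 1 and 657 for the fit without replicate 2. All conditions together left 537 genes (1.92%), 279 higher (0.999%) and 258 lower (0.924%), of which 422 were protein-coding. DESeq2 called 521 of the 537.

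These counts rest on the GC correction and on the spread of libraries outside the comparison. Without the correction 22 genes (0.0788%) were called, 19 higher and 3 lower, with 8092 at an unadjusted p under 0.05, and 21 of the 22 were among the 537. A fit of only the 4 libraries called 0 genes with the correction (4940 unadjusted) and 0 without it (2964 unadjusted), and the 6 libraries before serum gave 2. The fit without siPFDN5 replicate 1 called 15 genes and the one without siPFDN5 replicate 2 called 20. Without siPFDN2 replicate 2, 1089 genes were called with the GC correction and 917 without it, and without siPFDN2 replicate 1 these counts were 6692 and 14051. The split of directions depended on the scaling, the count table and the genes tested. It was 380 higher and 885 lower under library size alone, and 886 and 607 under upper-quartile scaling. In exon counts it was 682 and 967, and among genes that overlap no other gene 317 and 462.

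The targeted genes came first. PFDN2 (ENSG00000143256, GRCh38 chromosome 1, 161100556 to 161118111, minus strand) had 22.5 and 21.6 CPM in siPFDN5 and 7.60 and 6.87 CPM in siPFDN2, with siControl at 11.3 and 11.3 CPM (CPM is a gene's count relative to the scaled library total, here with the GC trend removed). The siPFDN5 libraries were the high ones and siControl lay between the knockdowns. The difference was 1.61 on the log2 scale (SE 0.13, adjusted p 0.000963), and the gene held. Against siControl PFDN2 was higher in siPFDN5 by 0.97 (adjusted p 0.0136), and in siPFDN2 its value of -0.64 did not pass (adjusted p 0.132). PFDN5 (ENSG00000123349, GRCh38 chromosome 12, 53295291 to 53299450, plus strand) had 40.6 and 43.8 CPM in siPFDN5, 75.9 and 71.3 CPM in siPFDN2, and 77.0 and 68.6 CPM in siControl. Only siPFDN5 was low, by -0.80 against siPFDN2 (SE 0.09, adjusted p 0.0033), and the gene held. Each of the targets overlaps 1 other annotated gene, and counting used no strand.

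The remaining subunits PFDN1, VBP1, PFDN4 and PFDN6 were not called, with log2 differences from -0.04 to 0.23. Nor was any of the 8 TRiC subunits, which fold actin and tubulin downstream of prefoldin (median -0.10, from -0.19 to 0.13), or any of the 13 actin and tubulin genes (median 0.05). ACTB, the main cytoplasmic actin, stood at 1221 and 1296 CPM in siPFDN5 and 1153 and 1285 CPM in siPFDN2, where the libraries overlapped. TUBB, a beta-tubulin, stood at 727 and 751 CPM against 924 and 925 CPM, separated but not called (-0.32, adjusted p 0.0718). Of the 9 prefoldin-like and R2TP genes tested, 0 were called, with a median of -0.02 beside 0.06 over all tested genes.

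The most negative difference among protein-coding genes that held with a mean log2 CPM of at least 3 belonged to DHRS2, a short-chain dehydrogenase/reductase (ENSG00000100867, GRCh38 chromosome 14, 23630115 to 23645639). It stood at 3.79 and 3.82 CPM in siPFDN5, 21.0 and 22.7 CPM in siPFDN2 and 8.95 and 7.50 CPM in siControl. The siPFDN2 libraries were above siControl and the siPFDN5 libraries below it, with no overlap. The difference of -2.52 (SE 0.16, adjusted p 0.000192) is 5.73-fold lower in siPFDN5, and DHRS2 was also called against siControl in each knockdown, at -1.11 in siPFDN5 (adjusted p 0.0158) and 1.41 in siPFDN2 (adjusted p 0.0198).

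Other lower genes of this kind had smaller differences, and in several the siPFDN2 replicates lay far apart. TRIM41, a ubiquitin ligase, stood at 20.8 and 21.8 CPM in siPFDN5 and 28.0 and 47.9 CPM in siPFDN2, with siControl at 27.7 and 26.2 CPM. ERI2, an exonuclease family gene that overlaps 6 others, stood at 69.4 and 71.5 against 91.8 and 149 CPM. In both, siPFDN2 replicate 2 was far above replicate 1, which lay near siControl, and the log2 differences of -0.83 and -0.77 became -0.40 and -0.39 without replicate 2. Without the GC correction ERI2 stood at -0.20. GINS3, a subunit of the GINS replication complex (-0.78), HFE, which regulates iron uptake (-0.78), ZNF180 (-0.77), METTL13 (-0.75), SFXN2 (-0.75) and CTRL, a chymotrypsin-like protease (-0.85), completed the list with the histone gene HIST1H2BN (-0.90, and -0.51 without siPFDN2 replicate 2). For ZNF180 the 4 libraries were 14.1 and 14.6 against 24.7 and 24.3 CPM, with siControl at 20.3 and 21.8 CPM, a case in which the replicates of both groups lay close together. Of the non-coding genes, the U3 small nucleolar RNA gene SNORD3A (-1.03, from 568 and 633 against 1031 and 1417 CPM) and AC004824.1 (-1.02, and -0.49 without siPFDN2 replicate 2) were the lowest. Of the higher ones AADACL2-AS1, which overlaps 6 genes, led at 1.34. U3 has near-identical copies, so which copy its fragments came from is uncertain.

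Genes higher in siPFDN5 included secreted, membrane and scaffold proteins. CPA4, a secreted carboxypeptidase (ENSG00000128510, GRCh38 chromosome 7, 130293134 to 130324180), had values of 17.9 and 17.1 CPM in siPFDN5, 5.83 and 6.82 CPM in siPFDN2 and 7.14 and 8.03 CPM in siControl (1.47, SE 0.14, adjusted p 0.00161). SUSD2, a sushi-domain membrane protein, stood at 24.9 and 27.0 against 9.48 and 10.7 CPM, with siControl between them at 14.6 and 17.7 CPM (1.36, SE 0.14). For CPA4 the siPFDN5 libraries stood apart while siPFDN2 lay near siControl, and for SUSD2 the 3 groups were spread out in order.

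AKAP12, a scaffold for protein kinase A, was the most abundant of the leading genes, at 2201 and 2105 CPM in siPFDN5, 962 and 1052 CPM in siPFDN2 and 1000 and 1475 CPM in siControl (1.10, SE 0.16, adjusted p 0.0103). Its siControl libraries varied more than those of either knockdown. PTCHD4, a patched-domain gene, stood at 17.4 and 14.2 against 7.29 and 6.37 CPM (1.21 in gene bodies and 0.70 in exon counts). SULF2, an extracellular heparan sulfatase, stood at 31.1 and 32.0 against 16.8 and 12.6 CPM (1.11), and ACTA2, the smooth-muscle actin, at 12.7 and 11.3 against 6.43 and 5.22 CPM (1.04). In ACTA2 siControl lay between the knockdowns at 8.24 and 8.50 CPM. ACTA2 overlaps 3 genes and SULF2 overlaps 2.

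**Figure D2:**
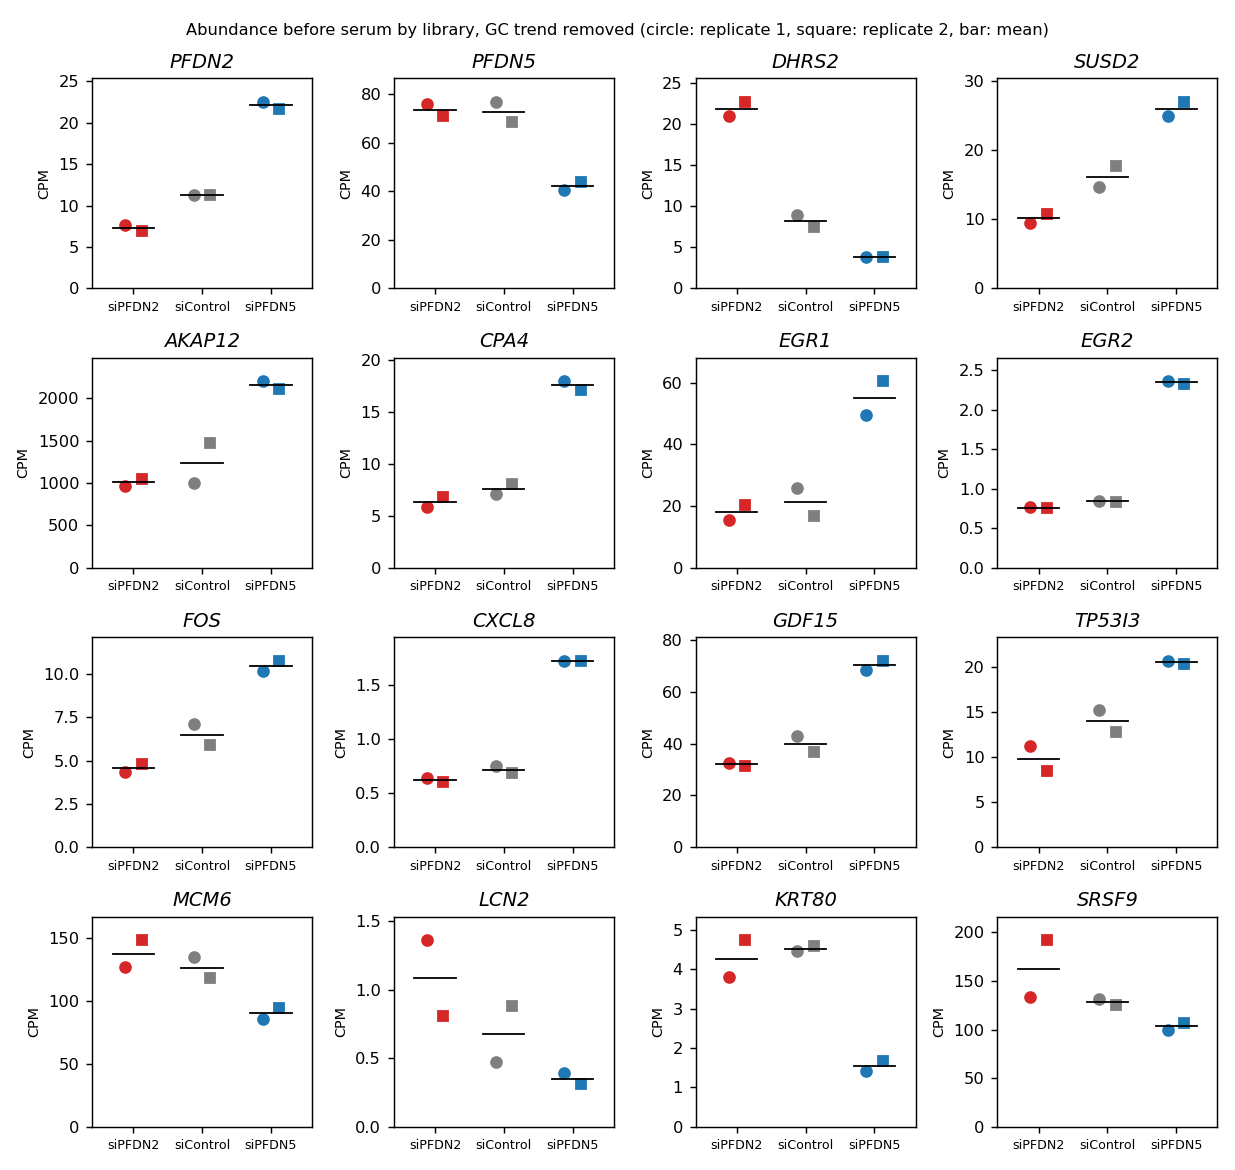
Abundance in CPM (vertical axes from 0, GC trend removed) of 16 named genes in the 6 libraries before serum, by siRNA; circles are replicate 1, squares replicate 2 and bars the mean of 2 libraries. In DHRS2 the knockdowns lay on opposite sides of siControl (3.79 and 3.82 CPM in siPFDN5, 21.0 and 22.7 CPM in siPFDN2), while in EGR2, CXCL8 and KRT80 siPFDN2 lay near siControl and siPFDN5 stood apart.

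Immediate-early genes, which growth factors switch on within minutes, were called in the higher direction alone. Of 40 tested, 12 were called higher and 0 lower, beside the 3.08% and 2.27% of all genes, and 8 of the 12 held. Their median difference was 0.30 beside 0.06 over all tested genes. Without the GC correction the median was 0.06 beside 0.04 and 4 were called higher. With the correction it was 0.39 without siPFDN2 replicate 1 and 0.36 without replicate 2. The EGR transcription factors led. EGR3 stood at 2.50 and 3.06 CPM in siPFDN5, 0.723 and 0.791 CPM in siPFDN2 and 1.22 and 0.965 CPM in siControl (1.87, SE 0.17, adjusted p 0.00122). EGR2 stood at 2.36 and 2.33 CPM in siPFDN5, 0.775 and 0.752 CPM in siPFDN2 and 0.844 and 0.839 CPM in siControl (1.62, SE 0.21, adjusted p 0.00619). In both, siPFDN5 alone was high, and both held.

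EGR1 (49.4 and 60.4 against 15.6 and 20.4 CPM, 1.61, SE 0.31, adjusted p 0.0276) and FOS (10.1 and 10.7 against 4.34 and 4.82 CPM, 1.19, SE 0.28, adjusted p 0.0428) were called and did not hold. Their libraries were separated, but without siPFDN2 replicate 1 or 2 the adjusted p was 0.0998 or 0.120 for EGR1 and 0.140 or 0.187 for FOS. CTGF, a matricellular growth factor gene (1.33), NR4A3, an orphan nuclear receptor (1.25), the stress-responsive ATF3 (0.98), DUSP6, a phosphatase that turns off ERK (0.77), the antiproliferative BTG2 (0.61) and SPRY4, an inhibitor of receptor signalling (0.43), all held. DUSP6 stood at 251 and 251 CPM in siPFDN5 and 158 and 137 CPM in siPFDN2, with siControl at 203 and 174 CPM. KLF4 (0.63) and ARC (0.60) were called without holding, and the value of ARC turned to -0.09 without the GC correction. NR4A3, CTGF, EGR2 and EGR3 stayed under 4 CPM in each of the 4 libraries. With library size as the only scaling, 8 of the 40 were called higher and 0 lower.

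Promoter sequence was read for the called immediate-early genes because several are known targets of serum response factor (SRF), which binds the CArG box. In RefSeq windows of 300 bases (GRCh38.p14, 250 before to 50 after a start), 10 of the 12 genes had a window and 2 of them, EGR1 and EGR2, held a CArG box by exact match to its core consensus (a palindromic pattern, so both strands are covered). Of all 40 immediate-early genes tested, 28 had a window and 3 held the box. It was in 1.29% of all 35116 windows. These stretches show the boxes in capitals, upstream of the start and in the direction of the gene: EGR1 from chr5:138465349-138465430, plus strand, and EGR2 from chr10:62816403-62816462, minus strand.
EGR1: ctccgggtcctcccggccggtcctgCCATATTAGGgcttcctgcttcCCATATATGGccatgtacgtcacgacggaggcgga
EGR2: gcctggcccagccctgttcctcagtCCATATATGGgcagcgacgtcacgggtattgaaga
The stretches hold 2 boxes in EGR1 and 1 in EGR2. A match of letters does not show binding, and 8 windows of called genes without one show only that these letters were absent there.

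Lists of related pathways had a small number of calls each. Calls in these and in all later lists are to be read beside the 3.08% of all tested genes called higher and the 2.27% called lower. Of 17 NF-kB targets and cytokines, 2 were called higher and 0 lower, and both held. CXCL8, a neutrophil chemokine, stood at 1.72 and 1.73 CPM in siPFDN5, 0.640 and 0.605 CPM in siPFDN2 and 0.755 and 0.686 CPM in siControl (1.46, SE 0.13, adjusted p 0.00139). ICAM1, an adhesion receptor, stood at 4.83 and 4.99 against 2.97 and 2.93 CPM (0.74). In CXCL8 siPFDN5 alone was high.

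Of 11 EGFR ligands and receptors, 2 were called higher. AREG, the ligand amphiregulin, stood at 180 and 193 CPM in siPFDN5, 120 and 92.9 CPM in siPFDN2 and 125 and 129 CPM in siControl (0.81, SE 0.12, adjusted p 0.0116), and it held. EGFR, the receptor itself, stood at 169 and 153 against 89.6 and 95.8 CPM (0.80, SE 0.19, adjusted p 0.0411) and did not hold. Of 20 cytoskeletal targets of SRF and YAP, 2 were called higher and both held, among them the kinase gene LATS2, which stood at 25.6 and 25.3 CPM in siPFDN5 and 18.2 and 16.9 CPM in siPFDN2 (0.54). The list's median was 0.13, but -0.22 without the GC correction, where 0 of its genes were called. Both siPFDN5 libraries lay above both siPFDN2 libraries for 9 of the 20 and below for 5. The shares over all tested genes were 31.1% and 21.9%. Among heat shock and cochaperone genes, HSPB1 was called higher (0.53, but -0.13 without the GC correction) and HSPH1 lower (-0.43), and neither held.

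Targets of p53, the tumour suppressor that HCT116 carries in functional form, were called in the higher direction alone. Of 23 tested, 10 were called higher and 0 lower, and 7 held, with a median of 0.46 beside 0.06 over all tested genes. Both siPFDN5 libraries lay above both siPFDN2 libraries for 21 of the 23 and below for 1, beside 31.1% and 21.9% of all tested genes. The list's median was 0.59 without siPFDN2 replicate 1 and 0.31 without replicate 2. GDF15, a secreted stress cytokine, stood at 68.4 and 72.0 CPM in siPFDN5, 32.5 and 31.5 CPM in siPFDN2 and 43.1 and 36.6 CPM in siControl (1.13, SE 0.12, adjusted p 0.00253). TP53I3, a quinone oxidoreductase, stood at 20.6 and 20.3 against 11.2 and 8.40 CPM, with siControl at 15.2 and 12.8 CPM (1.07, SE 0.14). In both, siControl lay between the knockdowns.

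CDKN1A, the cell cycle inhibitor p21, stood at 261 and 266 CPM in siPFDN5, 170 and 146 CPM in siPFDN2 and 165 and 166 CPM in siControl (0.74, SE 0.09, adjusted p 0.00564). ZMAT3, an RNA-binding protein, stood at 69.7 and 72.4 against 41.6 and 38.3 CPM (0.83). In both, siPFDN2 lay near siControl: against siControl, CDKN1A was called in siPFDN5 (0.67, adjusted p 0.0150) and not in siPFDN2 (-0.07), and ZMAT3 likewise (0.74, adjusted p 0.0136, and -0.09). TP53INP1 (0.82), the death receptor FAS (0.67) and GADD45A (0.53) held as well. BBC3, a proapoptotic BH3 protein (0.78), SESN1 (0.60, and 0.38 without siPFDN2 replicate 2) and PLK3 (0.58) were called and did not hold. With library size as the only scaling 8 of the 23 were called higher and 0 lower, and without the GC correction 0 were called, with a list median of 0.33.

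Genes of DNA replication had calls in the lower direction alone. Of 24 tested, 4 were called lower and 0 higher, beside 2.27% and 3.08% of all tested genes, and all 4 held. Both siPFDN5 libraries lay below both siPFDN2 libraries for 20 of the 24, beside 21.9% of all tested genes. The list's median was -0.31. MCM6, a subunit of the replicative helicase, stood at 86.1 and 94.9 CPM in siPFDN5, 127 and 148 CPM in siPFDN2 and 135 and 118 CPM in siControl (-0.61, SE 0.11, adjusted p 0.0224). The other helicase subunits MCM3 (-0.43) and MCM2 (-0.35) and GINS2, of the GINS complex (-0.42), stood near siControl in siPFDN2 too, while the siPFDN5 libraries were low. Against siControl, however, 0 of the 24 genes were called in either knockdown. The list's median against siControl was -0.25 in siPFDN5 and 0.04 in siPFDN2. The list's median against siPFDN2 was -0.23 without siPFDN2 replicate 1 and -0.40 without siPFDN2 replicate 2. Without the GC correction 0 genes were called (list median -0.37).

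Replication-dependent histone genes, whose messages are made in S phase, had 6 of 20 called lower and 0 higher, and all 6 held (median -0.28). The list turned on single siPFDN2 libraries: without replicate 1 its median was 0.10, and without replicate 2 it was -0.54. Without the GC correction 0 were called (median -0.46). HIST1H3H stood at 118 and 111 CPM in siPFDN5, 198 and 184 CPM in siPFDN2 and 202 and 190 CPM in siControl (-0.73, SE 0.10, adjusted p 0.00857). HIST1H4B (-0.69, and -0.45 without siPFDN2 replicate 1), HIST1H4H (-0.62), HIST1H4E (-0.60), HIST1H2AC (-0.59) and HIST2H2BE (-0.39) were the others. The 2 siPFDN5 libraries were the low ones in HIST1H3H, with siPFDN2 overlapping siControl. Histone genes have near-identical copies, so the share of fragments assigned to each is uncertain. Among 24 mitotic genes 2 were called lower, CENPA (-0.44, and -0.28 without siPFDN2 replicate 2) and TPX2 (-0.38), and neither held. Of 18 G1 cyclins and cell cycle inhibitors, CDKN1C, the inhibitor p57, was called higher (1.05, and 0.67 without siPFDN2 replicate 2) and E2F2, a transcription factor of S phase entry, lower (-0.55).

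SR splicing factors and CLK kinases, which shape splice site choice, had a median of -0.33. Without the GC correction it was -0.04 with 0 calls, and without siPFDN2 replicate 2 it was -0.21. Of 19 tested, 5 were called lower and 0 higher. SRSF2 stood at 141 and 142 CPM in siPFDN5, 204 and 232 CPM in siPFDN2 and 208 and 175 CPM in siControl (-0.62, SE 0.11, adjusted p 0.0184) and was the 1 member that held. SRSF9 (-0.66, and -0.37 without siPFDN2 replicate 2), SRSF7 (-0.59), SRSF3 (-0.51) and SRSF6 (-0.51) were called only. For SRSF3 and SRSF6 the values without the GC correction were -0.17 and -0.17. Core spliceosome genes (30) and RNA polymerase II kinases and elongation factors (29) had 0 calls each, with medians of -0.06 and -0.07.

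Of 24 ribosome biogenesis genes, the nucleolar proteins NOP56 (-0.47) and NOP2 (-0.36) were called lower, and both held. The 73 ribosomal protein genes had 0 calls and a median of 0.14, which was 0.39 without siPFDN2 replicate 1 and -0.05 without replicate 2. Of 18 small nucleolar RNA host genes, SNHG19 was called higher (19.9 and 16.4 against 11.6 and 7.94 CPM, 0.90) and SNHG15 (-0.67), SNHG17 (-0.61) and EPB41L4A-AS1 (-0.47) lower. SNHG19 held, as did 2 of the 3 lower genes. All 4 overlap other genes. The 13 mitochondrial mRNAs had a median of -0.58, which was 0.03 without siPFDN2 replicate 2. MT-ND5 stood at 120 and 167 CPM in siPFDN5 and at 131 and 633 CPM in siPFDN2. MT-ND3, which like MT-ND5 is a complex I subunit, was called higher at 48.7 and 57.1 against 36.0 and 27.7 CPM (0.73). It did not hold.

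Epithelial genes were called in both directions. Of 24 keratin and epithelial genes, CPA4 was called higher and 3 lower. KRT80, a keratin of epithelial sheets (ENSG00000167767, GRCh38 chromosome 12, 52168996 to 52192000), had values of 1.42 and 1.66 CPM in siPFDN5, 3.80 and 4.74 CPM in siPFDN2 and 4.46 and 4.60 CPM in siControl (-1.47, SE 0.14, adjusted p 0.00171). KRT23 stood at 17.4 and 17.2 against 27.0 and 24.6 CPM (-0.58). In both, siPFDN2 lay at the level of siControl, siPFDN5 was low, and the gene held. LCN2, an iron-binding secreted protein, was low throughout, at 0.390 and 0.311 against 1.36 and 0.807 CPM (-1.61, SE 0.40, adjusted p 0.0460), and did not hold. BMP and TGF-beta genes were likewise split, with LTBP1, which stores latent TGF-beta, higher (1.08) and BMP4 lower (-0.37). LTBP1 held and BMP4 did not.

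**Figure D3:**
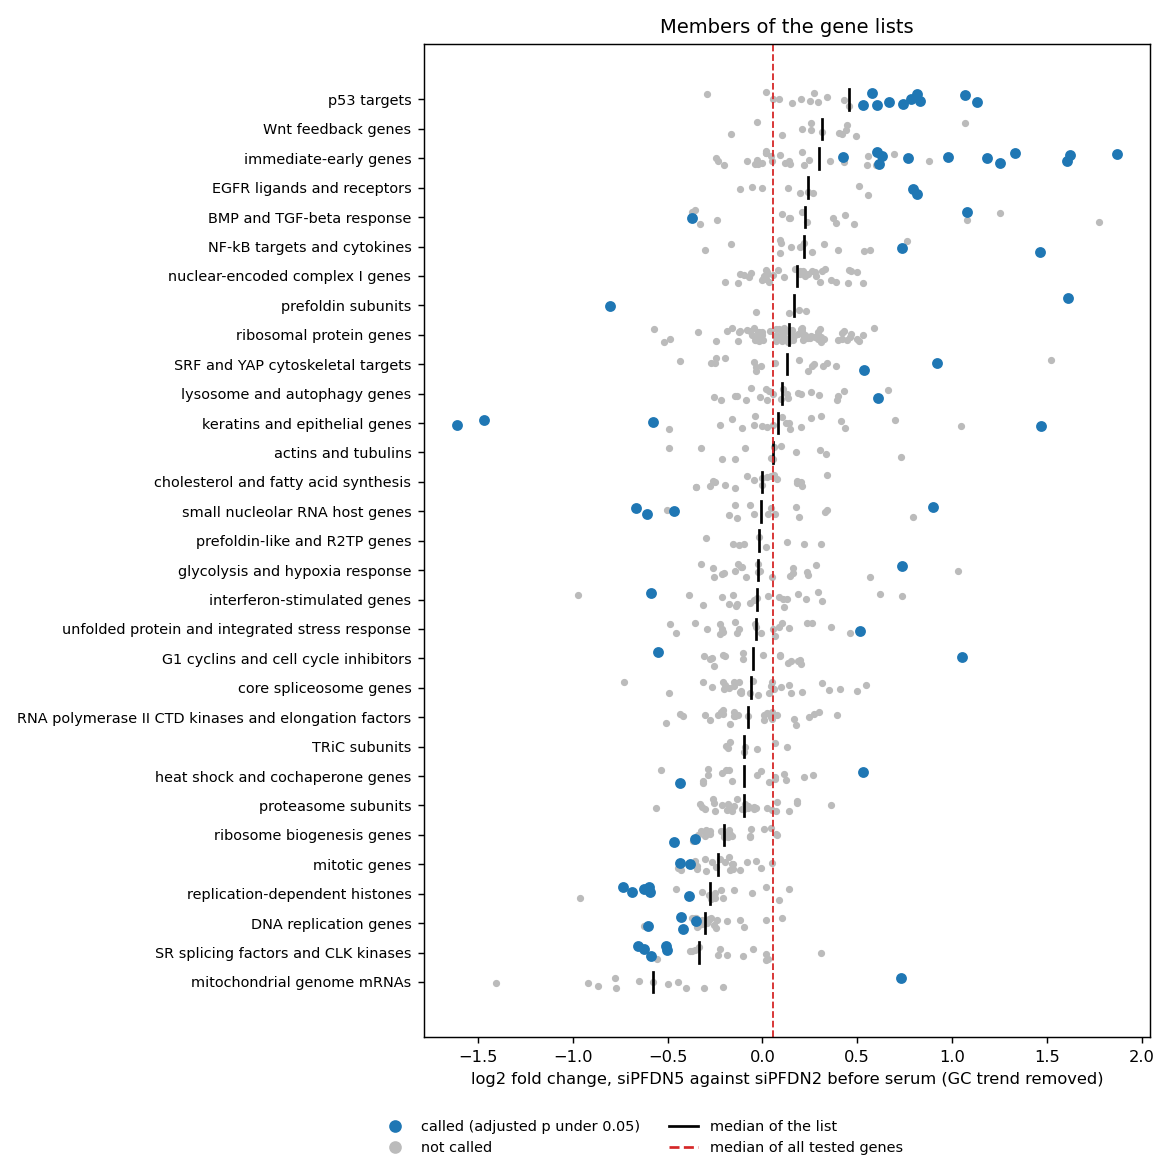
Log2 fold change of siPFDN5 against siPFDN2 before serum (horizontal axis) for each tested member of the 31 gene lists, ordered by median; blue points were called, grey points were not, black bars are list medians and the dashed line is the median of all tested genes. The lists with most calls were immediate-early genes (12 higher), p53 targets (10 higher) and replication-dependent histones (6 lower).

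Further lists had 1 call or none. PDIA4, an endoplasmic reticulum folding enzyme, was called higher among 24 genes of the unfolded protein response (0.52). It stood at 330 and 331 against 246 and 216 CPM. IFIT3 was called lower among 23 interferon-stimulated genes (-0.59), and both genes held. NDRG1 was called higher among 23 glycolysis and hypoxia genes (0.74) and MAP1LC3B among 24 lysosome and autophagy genes (0.61), and neither held. Proteasome subunits (31), cholesterol and fatty acid synthesis genes (20), nuclear-encoded complex I genes (38) and Wnt feedback genes (13) had 0 calls. The median of the complex I genes was 0.18, but 0.42 without siPFDN2 replicate 1 and -0.05 without replicate 2. Of the Wnt genes, 10 of 13 had both siPFDN5 libraries above both siPFDN2 libraries and 1 below. The shares over all tested genes were 31.1% and 21.9%. The median of the Wnt genes was 0.31, but -0.13 without the GC correction. The values of DKK1, a secreted Wnt inhibitor, were 122 and 121 against 89.3 and 83.4 CPM.

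Each knockdown was also read against siControl, a comparison that shares libraries with the one above. In siPFDN5 212 genes (0.759%) were called, 125 (0.448%) higher and 87 (0.312%) lower. In siPFDN2 4 (0.0143%) were called, 2 higher (0.00716%) and 2 lower (0.00716%). Of the 537 genes that held, 101 were called in siPFDN5 and 2 in siPFDN2. The 2 were DHRS2 and IRS1, an adaptor of insulin signalling, named after its values were seen. IRS1 stood at 158 and 156 CPM in siPFDN5, 204 and 227 CPM in siPFDN2 and 128 and 134 CPM in siControl, so that both knockdowns lay above siControl and siPFDN2 the farther. The genes were chosen for a difference between the knockdowns, so their medians against siControl are a description. The median log2 difference of the 279 higher genes was 0.53 in siPFDN5 and -0.32 in siPFDN2, both against siControl. For the 258 lower genes it was -0.36 and 0.17, and over all tested genes 0.02 and -0.03.

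After serum the same siRNAs gave 4 libraries that the comparison above did not use. PFDN5 was not called between them (-0.26, adjusted p 0.224), so the libraries labelled siPFDN5 after serum did not show its lowering, and directions there are those of the labels. PFDN2 was again higher in the libraries labelled siPFDN5 (1.49, adjusted p 0.00196). In all 185 genes (0.663%) were called after serum, 144 higher (0.516%) and 41 lower (0.147%). Of the 537 genes that held before serum, 441 had the same sign after it, 234 of the 279 higher and 207 of the 258 lower ones. By comparison 51.3% of all tested genes were positive after serum. Of the 537, 65 were called after serum with the same sign, 54 higher and 11 lower, and 0 with the other sign.

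The genes called at both times included CXCL8 (1.46 before and 1.59 after), CPA4 (1.47 and 1.45), DHRS2 (-2.52 and -1.53) and SUSD2 (1.36 and 1.00). The p53 targets TP53I3 (1.07 and 1.26), CDKN1A (0.74 and 0.91) and FAS (0.67 and 1.11) were among them, and 13 of the 23 p53 targets were called higher after serum. DNA replication genes and histones had 0 calls after serum, with medians of 0.01 and 0.15. Of the immediate-early genes 3 were called after serum, and EGR1 (-0.56) and FOS (-0.68) carried the other sign there without being called. The change of the difference from before to after serum was tested itself, and 0 genes were called by edgeR (4438 unadjusted), against 343 by DESeq2. The smallest adjusted p belonged to MT-ND3 (0.0666), which stood at 0.73 before serum and -1.12 after it.

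**Figure D4:**
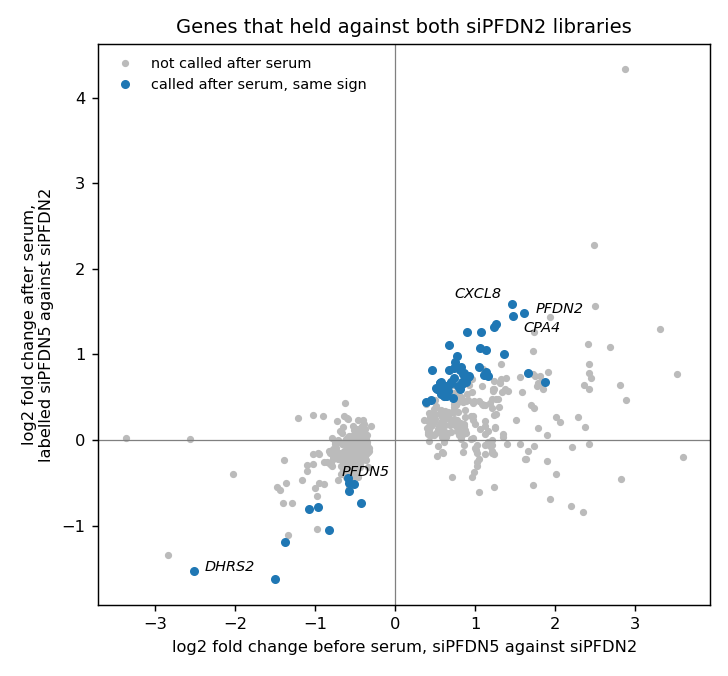
Log2 fold change between siPFDN5 and siPFDN2 before serum (horizontal axis) and between the libraries so labelled after serum (vertical axis) for the 537 genes that held before serum; blue points were also called after serum with the same sign (65 genes). Of the higher genes 234 of 279 lay above 0 after serum, and of the lower genes 207 of 258 lay below it.

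The genes that held differed in their build. The higher ones had a median length of 82809 bases, the lower ones 14956 and all tested genes 16872. Genes of 1 exon made up 3.23% of the higher, 10.5% of the lower and 18.6% of all tested genes. Protein-coding genes made up 78.5%, 78.7% and 57.4% in that order, so the genes that held also differed from all tested genes in type. Since gene-body counts include introns, exon counts were read for the same genes: 508 of the 537 were tested there, 503 had the same sign and 423 were called. All 258 lower genes kept their sign in exon counts, as did 245 of 250 higher ones, and the median of the higher genes was 0.72 in exon counts against 0.90 in gene bodies.

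Intron counts (gene-body minus exon counts) were set against exon counts for 2894 genes that overlap no other gene. The intron-to-exon ratio was called different between siPFDN5 and siPFDN2 for 3 genes (0.104%, 383 unadjusted), all higher in siPFDN5: the non-coding AL035446.1 (1.90), the ubiquitin-like UBL3 (1.86) and the zinc finger gene TSHZ1 (1.83). The ratio of UBL3 was 0.262 and 0.199 in siPFDN5 and 0.0569 and 0.0699 in siPFDN2, with siControl at 0.0763 and 0.0862. Both siPFDN5 libraries were thus the high ones. These calls were lost without the GC correction and without siPFDN2 replicate 2 (0 genes each), and the fit without siControl replicate 2 after serum called 389. Scaling introns and exons separately gave 182 calls, 100 higher and 82 lower, and a median difference of 0.03. Over the 2894 genes the median difference of the ratio was 0.17. It was 0.06 without siPFDN2 replicate 1, 0.32 without siPFDN2 replicate 2 and 0.09 without siPFDN5 replicate 1. The difference grew with gene length in each of the 4 pairs of libraries. In the longest of 5 bins of genes (median 103799 bases) the pairs differed by 0.25 to 0.75, and in the shortest (median 9828 bases) by -0.23 to 0.15. Replicates of the same group could differ too. Median log2 ratios of the siControl libraries after serum were -1.46 and -2.70 in the longest bin and -3.88 and -4.45 in the shortest. After serum the libraries labelled siPFDN5 were the low ones, at -3.29 and -3.26 in the longest bin against -2.49 and -2.63 in siPFDN2.

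**Figure D5:**
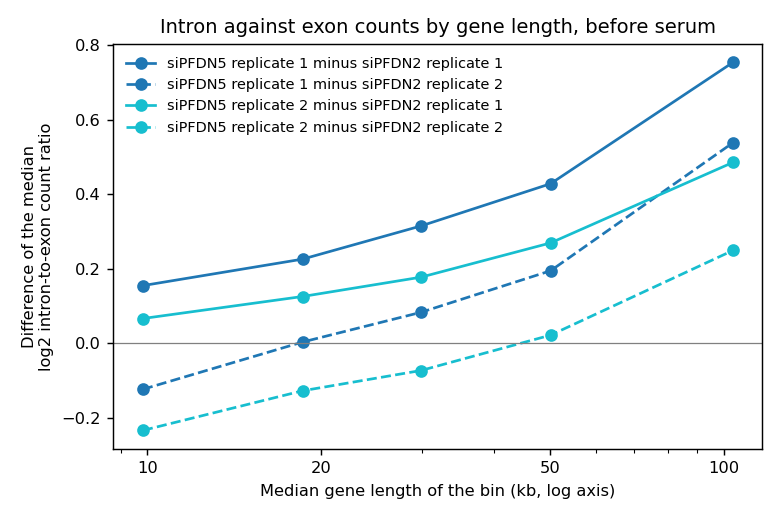
Difference of the median log2 intron-to-exon count ratio (vertical axis) between each siPFDN5 and each siPFDN2 library before serum, in 5 bins of 2894 genes by length (horizontal axis, median gene length of the bin in kb, log axis). All 4 lines rise with gene length, to between 0.25 and 0.75 in the longest genes. Libraries after serum, in which those labelled siPFDN5 had the lower ratios, are not shown.

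Summed over genes that overlap no other gene, introns took 8.32% and 7.10% of counts in the siPFDN5 libraries and 6.01% and 6.90% in the siPFDN2 libraries. The libraries were separated, but an exact two-sided permutation test on 2 against 2 values gave p = 0.333, the smallest it allows. Over all genes the shares were 22.8% and 25.9% against 16.2% and 16.1%. Introns of HFM1 and SLCO5A1, named after their values were seen, held 5.16% and 9.65% of all counts in siPFDN5 and 1.12% and 0.193% in siPFDN2. After serum the share was 5.86% and 3.98% in siPFDN2 and 3.19% and 1.20% in the libraries labelled siPFDN5, so it was not high in siPFDN5 alone. Without these genes the mean share was 18.3% in siPFDN5 and 15.6% in siPFDN2.

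Transcripts were searched for sites that pair with the seed of each guide, since an siRNA can lower messages through its seed alone. The site TCGATAC, for siPFDN2, was sought on the message strand in the longest annotated 3′ untranslated region and was present in 160 of the 15875 genes searched. Of these 160 genes 21 (13.1%) were called higher in siPFDN5, that is lower in siPFDN2, against 3.83% of the genes without the site. Their median was -0.13 in siPFDN2 against siControl and -0.01 in siPFDN5. The site CTGAGGA, for siPFDN5, was present in 3328 genes, of which 4.30% were called lower in siPFDN5 against 2.67% of the others. For the siControl seed, which neither compared siRNA carries, 13 (4.64%) of the 280 genes with a site were called lower against 2.98% of the rest. These are counts with no test, and the part of seed pairing in the differences above was not tested.

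Markers of other cell types were low. The 8 markers of colon epithelium, all detected, summed to 1936 and 1971 CPM in siPFDN5 and 2036 and 2784 CPM in siPFDN2. Of 5 leukocyte markers 2 passed the filter on low counts, with a sum of 4.24 and 4.44 CPM in siPFDN5 against 3.03 and 2.97 CPM in siPFDN2, nearly all of it CD68, and CD3E was at 0 in both siPFDN5 libraries. Of 6 fibroblast markers 3 passed, with a sum of 5.54 and 5.51 CPM in siPFDN5 and 4.20 and 16.2 CPM in siPFDN2. The collagen gene COL1A1 made up 15.7 CPM of the highest value, and LUM was at 0 in all 4 libraries. Endothelial markers summed to 1.42 to 1.93 CPM and erythrocyte markers to 0.576 to 0.768 CPM. The part of these cell types in the results was not tested.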

How the data were processed

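The authors deposited fragment counts per gene over gene bodies and over exons for 58051 genes. Per the file headers, featureCounts counted a fragment for every gene it overlapped and no strand option was used, on Ensembl release 87 of GRCh38. The submitters' processing notes name HISAT2, featureCounts 1.5.2, kallisto 0.43 and GRCh38.p7. The deposited transcript files hold estimated counts, which were summed per gene and rounded. Another 6 columns match no sample label and were not used. Names, positions and transcript GC content (known for 99.0% of tested genes) came from GENCODE release 29.

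The model for gene-body counts was built in edgeR 4.0.16 (R 4.3.3): filterByExpr, TMM scaling, 1 model of 6 group means over 12 libraries, and a lowess of each library's log2 deviation on GC content (span 0.3, 3 iterations, prior count 2) in the offset. Tests were two-sided, and an SE is the fold change over the root of the test statistic. In simulated counts for 27915 genes with the measured GC trends, 80.6% of genes changed 2-fold and 11.9% of those changed 1.5-fold were called in siPFDN5 against siPFDN2, and 7 of 27715 unchanged genes were. Without the GC correction 43.3% of the 2-fold changes were called. The simulation gave every library the same spread and changed only genes with a mean log2 CPM of at least 3. It left out the wider spread of siPFDN2 before serum, so its rates may not apply to the measured counts.

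Named genes are the targets, the 12 most positive and 12 most negative protein-coding genes and 2 non-coding genes each way that held with a mean log2 CPM of at least 3, up to 4 called members of each list, and members a sentence needed, of which some are not reported here. The members and the 31 lists were chosen with earlier results of these data known. The deposited files were from bulk RNA with 18S rRNA depleted, per the labels. Same-numbered replicates did not deviate together in most pairs of groups (correlation over 0.1 in 4 of 15). The correlations ran from -0.30 to 0.44, and that of siPFDN5 with siPFDN2 before serum was 0.12. Alternatives were other scalings, filters, tools, count tables, sets of libraries and a replicate block. Sequences of promoters are RefSeq's.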

Additional observations from a re-analysis of the deposited data

How the results depend on the processing

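The count of genes called between siPFDN5 and siPFDN2 before serum was 22 without the GC correction, 2941 by DESeq2, 4339 without a filter on low counts, 779 among genes that overlap no other gene, 2 in the 6 libraries before serum, and 0 in the 4 libraries alone with or without the correction. Leaving out 1 library gave 15 to 6692, and 446 higher and 643 lower without siPFDN2 replicate 2. After serum the count was 5 without the GC correction and 664 by DESeq2, and 5 to 1414 with 1 library left out. Against siControl it was 2 and 1237 (0 to 1866) for siPFDN5, and 0 (3156 unadjusted) and 314 (0 to 5731) for siPFDN2. For the change from before to after serum DESeq2 called 343, and edgeR 0 to 2485 with 1 library left out. With 1 library left out its group's lone library is assumed to vary like the other groups. Without the GC correction 22 genes held, and the cause of these shifts was not tested.

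Fits with a replicate block are given only here, because the numbers do not pair the samples (correlations of deviations from -0.30 to 0.44 over pairs of groups). Before serum the block called 1010 genes with the GC correction and 15 without it. After serum it called 78 and 0 (2153 unadjusted), for siPFDN5 against siControl 72 and 0 (3304 unadjusted), for siPFDN2 against siControl 1 and 0 (2987 unadjusted), and for the change over serum 0 (4252 unadjusted) and 1. Of the 90 named genes 79 stayed called with the block.

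For intron against exon counts 0 genes were called without the GC correction (351 unadjusted), 0 with at least 50 intron and exon counts (244), 0 with the replicate block (336), 182 with separate scaling, and 0 to 389 with 1 library left out. The intronic share was higher in siPFDN5 by 1.25 percentage points in genes without overlap, 8.17 in all genes and 2.67 without HFM1 and SLCO5A1. Named genes that changed sign were ARC (-0.090 without GC correction, -0.155 in the 4 libraries without it, -0.056 with the block and without it), HSPB1 (-0.133, -0.202 and -0.091 in that order) and PLK3 (-0.0091 in the 4 libraries without it). DESeq2 called all 90 named genes. Removing the GC trend from siPFDN2 replicate 2 only, the 4 libraries without GC correction, genes that hold without it, separate scaling and the share without HFM1 and SLCO5A1 were chosen after seeing the data. GC content of the whole gene body was not run, since no genome was given. Of simulated 1.5-fold changes 11.9% were recovered, with the same spread in every library. Small differences were thus mostly not detectable at this number of libraries.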

Other observations

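Further genes held before serum and were called after it with the same sign. They fall outside the naming rule and are named here after their values were seen. VTCN1, an immune checkpoint ligand of the B7 family, stood at -1.50 between siPFDN5 and siPFDN2 before serum and at -1.63 between the libraries so labelled after it. METTL7A (-1.08 and -0.81), ANKRD22 (-0.83 and -1.05) and SOX4, a transcription factor of progenitor cells (-0.43 and -0.74), were lower at both times. DRAXIN, a secreted guidance protein that inhibits Wnt signalling (1.25 and 1.36), DIRAS3, a small GTPase that restrains growth (1.13 and 1.05), and GEM, a GTPase that acts on the cytoskeleton (0.76 and 0.98), were higher at both times. For VTCN1 the siPFDN5 value lay away from siControl (-1.45) and the siPFDN2 value near it (0.05), while for DRAXIN the siPFDN2 value was the farther one (-0.91 against 0.34).

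PFDN5 is known as a protein that binds MYC, so MYC was read as well. It stood at 167 and 179 CPM in siPFDN5 and 177 and 179 CPM in siPFDN2, and its difference of -0.04 (SE 0.12) was not called.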
